A study of Mus musculus with 1507 samples.

Results

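The 344 genes described here are long intergenic noncoding RNA (lincRNA) genes that were expressed while mouse embryonic stem (ES) cells turned into primitive endoderm (PrE). They were chosen from 3707 lincRNA genes, among 47643 genes in all, by their level: the TPM of a gene (its share of the transcripts of a cell, scaled to a fixed total and summed over its transcripts) had to reach a mean of at least 2 over the cells of at least 1 time (0, 12, 24, 48 or 72 h). That level was reached by 369 lincRNA genes, and the 344 remained after genes beside the rRNA locus, a set of long-known noncoding RNAs such as Malat1 and H19, host genes named Snhg and genes of the sex chromosomes were left out. The values of the time course chose the genes, so they are given as a description, without a test. Just inside the level were Gm42485 (2.01 TPM), 4632415L05Rik (2.02 TPM) and D130020L05Rik (2.04 TPM), and just outside were 5930412G12Rik, RP24-443B5.7 and Gm16302 (each 1.99 TPM).

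All RNA came from 5G6GR cells, a line made from EB5 ES cells by random insertion of a Gata6-GR-IRES-Puro construct, which codes for a fusion of the transcription factor Gata6 with the glucocorticoid receptor. ES cells, the controls included, therefore carried the transgene and grew without feeders in medium with leukemia inhibitory factor, puromycin and blasticidin, and dexamethasone in place of blasticidin turned the fusion protein on and gave PrE. Single cells were sorted into wells and made into libraries with RamDA-seq, which starts cDNA at oligo-dT and at primers spread over the length of an RNA: 92, 91, 93, 87 and 93 cells at 0, 12, 24, 48 and 72 h; 93, 91 and 93 ES cells in the G1, S and G2/M phases of the cell cycle; ES and PrE cells on 4 plates, with 38 to 58 cells of a type per plate; and 16 ES and 39 PrE cells on the C1 microfluidic system. ES cell RNA was also made into bulk libraries from 1 µg, after depletion of rRNA (rdRNA-seq, n = 3) or selection of poly(A) RNA (paRNA-seq, n = 3), and into libraries from 10 pg by RamDA-seq (n = 3) and by SMART-Seq v4 (n = 4), which primes at the poly(A) tail. No separate culture is named for a time, a phase, a plate or a library, so the p-values below measure only the spread between plates or libraries, which may be technical.

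LincRNAs are transcribed by RNA polymerase II, mostly spliced and capped like mRNAs, but they hold no long reading frame. Many are bound to chromatin or quickly degraded, some act on genes near their own site, some hold small RNAs in their introns or exons, and others have no known role. In ES cells a number of them, among them the Platr (pluripotency-associated transcript) genes, are made under the pluripotency factors, and primitive endoderm is the first extraembryonic layer that the inner cell mass gives under Gata6.

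The labels were checked against markers. Of 16 PrE markers, 15 were higher in PrE than in ES cells on the plates (limma, adjusted p below 0.05), the exception being Gata6 itself, whose level includes any reads from the transgene. Without wells of few transcripts, described below, all 16 were higher. Of 12 markers of naive ES cells, 10 were lower, the exceptions being Klf4 and Dppa5a. Summed means over the groups of cells were 3.88 to 9.72 TPM for 6 trophoblast markers, 1.37 to 4.25 TPM for 6 mesoderm markers, 2.06 to 33.7 TPM for 5 neural markers and 0.361 to 3.98 TPM for 6 fibroblast and blood markers, against 8248 TPM for the PrE markers at 72 h. The neural sum was higher in ES than in PrE cells (22.5 TPM at 0 h, 4.98 TPM at 72 h), and its part in the results was not tested. Cells of the time course held a median of 37768 to 40983 detected transcripts (TPM of at least 0.1), depending on the time. On the plates, 0 to 9 wells of a cell type and plate held few transcripts, down to 22, and moved the mean of 8 members at least 2-fold. In 1 cell of 48 h, described below, 15 members had over 50% of their summed TPM. Counts of calls on the plates, and the values of genes that the wells moved, are given with and without the wells, and results that rest on that cell with and without it.

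The members lay on 19 chromosomes, had a median span of 6394 bases and a longest transcript of 1250 bases in the median, and 31 were unspliced in every transcript. The nearest start of a protein-coding gene was at a median of 28150 bases and lay within 100 kb for 280 members. A divergent protein-coding start within 2 kb was found for 38 members, and 47 lay inside a protein-coding gene on either strand, 7 of them on its own strand. An exon of 81 members overlapped an exon of another gene, a protein-coding one in 53 cases. The quantification did not use strand, so reads of such pairs cannot be told apart. Inside 5 members lay snoRNA or scaRNA genes, and inside 6 miRNA genes.

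Most members were detected in most cells, at low levels. The peak mean was at least 10 TPM for 77 members and at least 100 TPM for 10. The median member was found in 95.7% of cells at 0 h, 93.4% at 12 h, 94.6% at 24 h, 90.8% at 48 h and 92.5% at 72 h (TPM of at least 0.1). With a TPM of at least 1 as the limit, these shares were 82.6%, 72.5%, 82.3%, 73.6% and 76.3%. A cell held a median of 295 members at 0 h and 267 at 72 h, and their summed level went from 4133 ± 743 TPM (mean ± SD over 92 cells) to 2752 ± 461 TPM (93 cells).

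A few members held much of that sum. Gm26825 had the highest mean, 598 ± 165.3 TPM at 0 h, 924 ± 432 at 12 h, 798 ± 334 at 24 h, 637 ± 237 at 48 h and 424 ± 130 at 72 h, and its exons overlap those of Gm15459. Gm26905 followed with 407 ± 116.1 TPM at 0 h and 243 ± 64 at 72 h, and Gm26547 went from 185.1 ± 58.8 to 63.7 ± 23.1 TPM. The SDs over cells of both times were smaller than these falls for Gm26547, whereas the falls of Gm26825 and Gm26905 were about as large as the SD at 0 h or somewhat larger. Gm28901 (155.5 ± 41.8 TPM at 0 h), which overlaps Gm6430, and Gm43994 (161.4 ± 65.1 TPM at 0 h) changed by less than 2-fold. Gm26870 lies on chromosome 9 at 3000282 to 3038313 (GRCm38), where its exons overlap 6 other gene models, so its mean of 155.4 ± 187.7 TPM at 0 h may be shared between copies.

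Between 0 and 72 h, 74 members fell at least 2-fold in mean TPM and 22 rose at least 2-fold, on the log2(TPM + 1) scale, and 248 lay in between. Among all 14960 genes at the same level, 13.2% fell and 14.6% rose by this much. The median log2 difference was -0.25 for the members and -0.00 for all genes. Of the 74 that fell, 20 had passed 2-fold by 12 h, 18 more by 24 h, 22 more by 48 h and 14 by 72 h (27%, 24.3%, 29.7% and 18.9%). Among all genes that fell by 72 h these shares were 30.2%, 16.2%, 27.5% and 26.1%. The 22 that rose passed it at 12 h in 4 cases (18.2%), at 24 h in 5 (22.7%), at 48 h in 8 (36.4%) and at 72 h in 5 (22.7%), against 14.9%, 39.4%, 29.2% and 16.5% of all genes that rose. From 0 to 12 h, 24 members fell and 6 rose at least 2-fold, where 5.31% of all genes fell and 3.31% rose. From 12 to 24 h, 4 fell and 5 rose (1.61% and 5.33% of all genes).

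**Figure D1:**
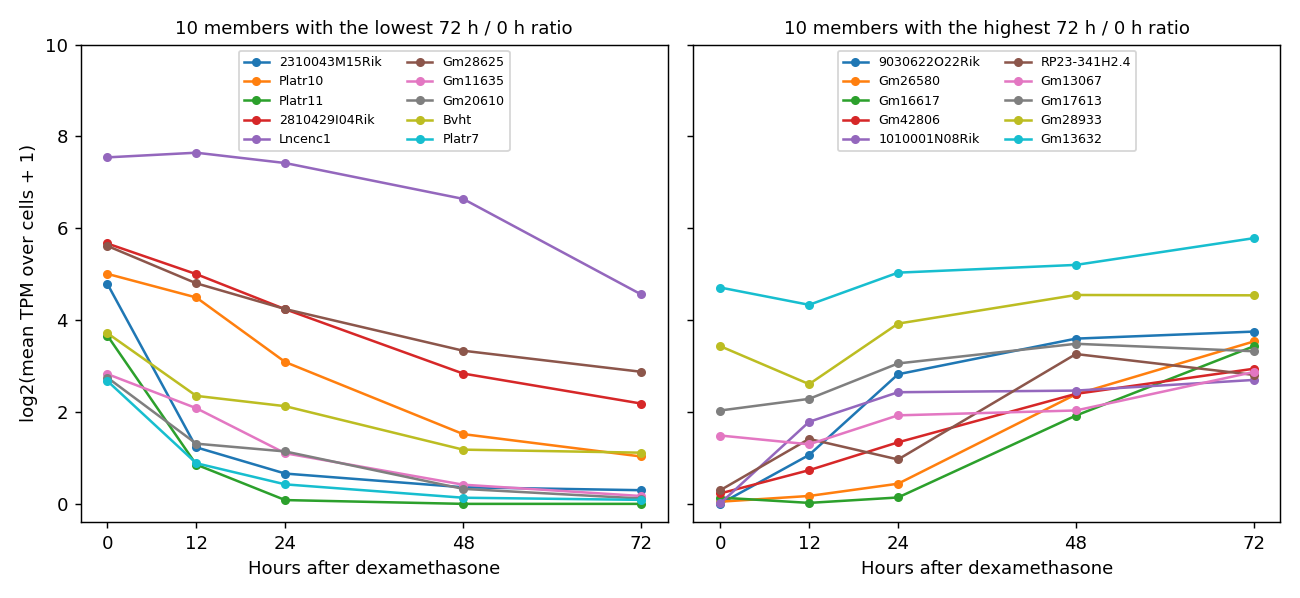
Mean level over the cells of each time, as log2(TPM + 1), against hours after dexamethasone, for the 10 members with the lowest (left) and the 10 with the highest (right) ratio of 72 h to 0 h. 2310043M15Rik and Platr11 were near 0 by 12 h, whereas Platr10 declined over the whole course; on the right, 9030622O22Rik and 1010001N08Rik had risen by 24 h and Gm26580 and Gm16617 only at 48 and 72 h.

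The deepest fall was that of 2310043M15Rik (chromosome 16, 93792150 to 93794888, minus strand), an uncharacterised gene that lies within Dopey2 on the other strand and overlaps its exons. Its mean was 26.7 ± 20.8 TPM at 0 h, 1.35 ± 2.03 at 12 h, 0.58 ± 0.95 at 24 h, 0.285 ± 0.772 at 48 h and 0.229 ± 0.544 at 72 h, a log2 difference of -4.49 from 0 to 72 h. It was found in 98.9% of cells at 0 h (95% exact binomial interval 94.1 to 100.0%) and in 20.4% at 72 h (12.8 to 30.1%). The 0 h cells reached 124.5 TPM for 2310043M15Rik, and no 72 h cell exceeded 2.70 TPM. These intervals, and those below, cover counting error over cells only.

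Its promoter and those of Platr26 and Gm5860, which fell too, are shown because each holds letters of motifs bound by factors of this system. The windows run from 250 bases before to 50 bases after a RefSeq start (GRCm38.p6), 5′ to 3′ on the gene's strand, with capitals for matches on either strand to AACAAAG (SOX factors), CCACACCC (KLF factors) or, for factors of the GATA family, AGATAA. They lie at chr16:93794852-93795151 (minus strand), chr2:71719167-71719466 (plus strand) and chr4:82065130-82065429 (plus strand).
2310043M15Rik: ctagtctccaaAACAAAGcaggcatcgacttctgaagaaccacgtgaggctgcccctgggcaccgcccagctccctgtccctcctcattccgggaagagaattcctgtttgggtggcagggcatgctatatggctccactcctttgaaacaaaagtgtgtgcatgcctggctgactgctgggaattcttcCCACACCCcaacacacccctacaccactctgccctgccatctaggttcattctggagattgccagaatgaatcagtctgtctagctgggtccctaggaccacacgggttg
Platr26: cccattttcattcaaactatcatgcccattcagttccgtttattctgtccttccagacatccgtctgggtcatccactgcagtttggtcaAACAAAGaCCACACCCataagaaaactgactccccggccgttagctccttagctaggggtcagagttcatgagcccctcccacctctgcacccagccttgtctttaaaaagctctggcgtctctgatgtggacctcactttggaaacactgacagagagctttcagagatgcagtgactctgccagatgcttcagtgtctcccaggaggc
Gm5860: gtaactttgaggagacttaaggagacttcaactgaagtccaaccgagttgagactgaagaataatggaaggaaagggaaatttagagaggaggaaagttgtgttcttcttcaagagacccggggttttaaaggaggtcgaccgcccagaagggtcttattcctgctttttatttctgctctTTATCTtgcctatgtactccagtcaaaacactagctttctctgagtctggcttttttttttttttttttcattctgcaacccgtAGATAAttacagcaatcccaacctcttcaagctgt

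A promoter window was at hand for 91 members, of which 27 fell and 7 rose at least 2-fold by 72 h. The SOX letters were found in 4 of the 27 (14.8%), in 1 of the 7 (14.3%), in 5.49% of all 91 and in 5.85% of 32851 promoters of that length. The KLF letters were in 3 of the 27 (11.1%), in 0 of the 7, in 7.69% of the 91 and in 3.56% of all promoters. The GATA letters were in 5 of the 27 (18.5%), in 1 of the 7 (14.3%), in 9.89% of the 91 and in 11.2% of all promoters. The letters ATTTGCAT of the octamer, which POU factors bind, were in 1 of the 27 (3.70%), in 1 of the 7 (14.3%), in 3.30% of the 91 and in 1.74% of all promoters. With 27 and 7 promoters, 1 match moves a share by several percentage points, and a match is a stretch of letters, not a bound site.

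Most of the Platr genes were lower at 72 h. Of 15 members with this name, 10 were at least 2-fold lower and none was 2-fold higher (13.2% and 14.6% of all genes), with a median log2 difference of -1.43. Others went up by less than 2-fold, Platr20 from 3.69 ± 3.28 to 5.37 ± 3.46 TPM and Platr25 from 1.88 ± 1.399 to 2.61 ± 1.62 TPM. Platr11 went from 11.7 ± 8.73 TPM at 0 h to 0.81 ± 2.44 at 12 h and 0.0588 ± 0.567 at 24 h, and was listed at 0 in every cell of 48 and 72 h. It was found in 98.9% of cells at 0 h, 17.6% at 12 h (10.4 to 27%) and 1.08% at 24 h. Platr10 fell more slowly, with 31.2 ± 12.6, 21.5 ± 10.7, 7.51 ± 5.82, 1.87 ± 2.83 and 1.05 ± 0.88 TPM at the 5 times, a log2 difference of -3.98. Platr7 (5.40 TPM at 0 h) and Platr28 (11 TPM at 0 h) had mean levels of 0.0624 and 1.16 TPM at 72 h. Platr13 was at 39.1 TPM at 0 h and still at 35.6 TPM at 48 h before it reached 15.5 TPM, and Platr15 went from 33.4 to 12.9 TPM. On the authors' merged gene models, which add assembled transcripts to the annotation, Platr15 had a log2 difference of 0.30 and Platr13 one of -0.10.

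Among lincRNAs with a described role, 6 of 11 were at least 2-fold lower at 72 h and none was 2-fold higher (13.2% and 14.6% of all genes). The 11 include Lncenc1, which was added by hand to the list of the others and is among the 6. Lncenc1, which is known to sustain glycolysis and naive pluripotency genes in ES cells, stood at 185.8 ± 64.1, 199.4 ± 88, 170.5 ± 78.4, 98.8 ± 57.4 and 22.6 ± 26.9 TPM, so that its fall came after 24 h. Even at 72 h it was found in 92.5% of cells, with a median of 15.3 TPM and a highest value of 115.4 TPM for Lncenc1. Bvht, known from heart lineage commitment, went from 12.2 ± 6.23 to 1.17 ± 1.54 TPM. Dancr, a host of the snoRNA gene Snora26, went from 21.6 ± 13.6 to 4.64 ± 5.44 TPM. Halr1, which lies in the Hoxa region, Miat, known from the nervous system, and Mir124a-1hg, a host of miR-124, were at 3.08, 3.72 and 4.70 TPM at 0 h and at 0.234, 0.295 and 0.898 TPM by 12 h. The level of 1700020I14Rik (Oip5os1, also called Cyrano, which promotes decay of miR-7) went from 9.89 ± 3.51 to 17 ± 5.49 TPM, less than 2-fold.

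Other members with steep falls have no described role. 2810429I04Rik went from 49.9 ± 18 to 3.55 ± 2.60 TPM (log2 difference -3.48). Gm28625 (48.1 ± 34.4 to 6.34 ± 7.95 TPM) and Gm5860 (20.5 ± 11.7 to 2.84 ± 3.08 TPM) fell on the GENCODE models (log2 differences -2.74 and -2.49), but on the merged models their log2 differences were 0.47 and 0.01.

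The largest rise was that of 9030622O22Rik (chromosome 2, 147944740 to 148040203, minus strand), whose start lies 6766 bases from that of Foxa2, a transcription factor of endoderm. It was listed at 0 in all 92 cells of 0 h, in which a share of up to 3.93% of cells is allowed (95% exact binomial bound). Its mean was 1.09 ± 1.67 TPM at 12 h, 6.07 ± 6.48 at 24 h, 11.1 ± 8.41 at 48 h and 12.5 ± 9.14 at 72 h. The share of cells with 9030622O22Rik was 48.4% at 12 h (37.7 to 59.1%), 80.6% at 24 h (71.1 to 88.1%), 94.3% at 48 h and 96.8% at 72 h. Its promoter (chr2:148040299-148040598, minus strand, GRCm38.p6) is shown with a match to the SOX letters in capitals, the 1 such promoter among the members that rose.
9030622O22Rik: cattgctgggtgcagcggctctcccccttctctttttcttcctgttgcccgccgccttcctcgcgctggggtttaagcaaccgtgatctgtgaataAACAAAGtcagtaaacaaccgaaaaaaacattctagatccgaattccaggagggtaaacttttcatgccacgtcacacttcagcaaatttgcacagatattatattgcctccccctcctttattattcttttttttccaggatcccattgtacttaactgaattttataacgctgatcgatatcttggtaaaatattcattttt

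Other members rose at different times. 1010001N08Rik, whose start lies 57 bases from that of Gata6 and whose exons overlap it, was early: 0.00645 TPM at 0 h, 2.45 ± 2.83 at 12 h and 5.49 ± 3.23 at 72 h. It was found in 1.09% of cells at 0 h and 75.8% at 12 h (65.7 to 84.2%), and in 97.8% of cells at 72 h for 1010001N08Rik. Gm26580, which overlaps the potassium channel gene Kcnq5, and Gm16617, which overlaps Arhgef40, were late: Gm26580 stood at 0.356 TPM at 24 h, 4.23 ± 4.22 at 48 h and 10.6 ± 7.40 at 72 h, and Gm16617 at 0.101, 2.79 ± 3.47 and 9.79 ± 9.43 TPM. Gm42806, which starts 4316 bases from Il6, was uneven between cells, with 6.69 ± 10.5 TPM at 72 h, 55.9% of cells (45.2 to 66.2%) and a highest cell at 60.2 TPM. Gm13632 was present throughout and went from 25.2 ± 10.6 to 54.2 ± 38.6 TPM. Of these, Gm13632 and Gm42806 had the largest SDs in TPM over the cells of 72 h.

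Only 4 members had their highest mean at 12 or 24 h with at least 2 times the mean of both 0 and 72 h. Gm28592, which overlaps the stress-responsive gene Phlda1, was at 0.814 ± 1.29 TPM at 0 h, 7.97 ± 6.95 at 12 h, 2.89 ± 3.38 at 24 h, 1.93 ± 2.25 at 48 h and 1.5 ± 1.95 at 72 h. Gm20707 peaked at 24 h (15.7 ± 7.45 TPM, against 6.80 at 0 h and 5.64 at 72 h), as did Gm44019 (3.71 ± 5.31 TPM). Gm28872 was highest at 12 h (5.39 ± 12.4 TPM). The peak means of Gm28592 and Gm20707 rested on 88 of 91 and 93 of 93 cells above 0, those of Gm44019 and Gm28872 on fewer cells, 38 of 93 and 22 of 91.

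The step from 24 to 48 h counted 17 members that rose and 7 that fell at least 2-fold (3.8% and 3.6% of all genes), and the step from 48 to 72 h 3 that rose and 14 that fell (1.24% and 2.31%). Both counts rested on 1 cell of 48 h. Without it, 4 members rose from 24 to 48 h and 2 fell from 48 to 72 h. The rule itself would then give 330 members instead of 344.

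In that cell, the 15 members it led summed to 22273 TPM, against a median of 39.4 and a highest sum of 202 TPM in the 86 other cells of 48 h. Gm43678 (chromosome 3, 139812111 to 139812764) stood at 11752 TPM, where the next cell had 136.9 TPM and the mean without the cell was 29.5 TPM. RP23-32A8.10 was at 3375 TPM (next cell 7.85), Gm12798 at 3311 TPM (next cell 21.7) and 1700030L20Rik at 848 TPM (next cell 16.8). Gm12702 (178.2 TPM) and Gm28806 (357 TPM) were listed at 0 in each of the 86 other cells. Of the 15, 11 would not have reached the level of the rule without this cell, and Gm43678, Gm12798, Gm43129 and RP23-341H2.4 would have.

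The same cell differed in other genes. The summed level of 7 markers of 2-cell-like cells, a rare state of ES cultures that expresses genes of the 2-cell embryo, was 1051 TPM, against at most 5.8 TPM in the others, with Tcstv1 at 366, Zfp352 at 294, Tcstv3 at 266 and Zscan4f at 66.4 TPM. Its PrE markers summed to 251 TPM, near the lowest of the others (227) and below their median of 6409, and its naive ES cell markers to 675 TPM, below their median of 2552. It held 22976 detected transcripts, where the others had 19656 to 41887 with a median of 38805. No other cell of any group reached 100 TPM for those 7 markers. A PrE cell of the plates had 6718 TPM for the sum of the 15 members, with 21.9 TPM for the markers. The part of cell state or of depth in these levels was not tested.

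**Figure D2:**
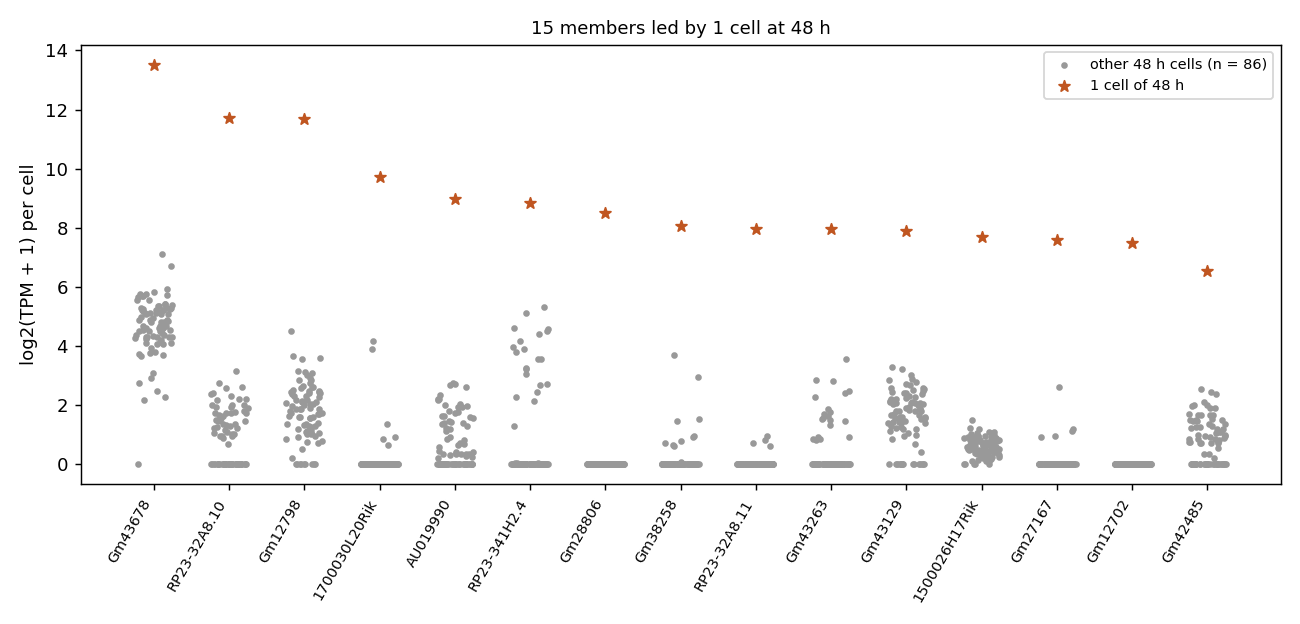
Level per cell at 48 h, as log2(TPM + 1), of the 15 members with over 50% of their summed TPM in 1 cell. The star is that cell and the grey points are the 86 other cells of 48 h; the star lies above each of them for all 15 members, from 92.8 TPM for Gm42485 to 11752 TPM for Gm43678.

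The plates gave cells that had no part in the choice of the members, with 4 plate means per cell type (2 experimenters, 2 days each). Of 317 members with a mean of at least 1 TPM, 40.7% were lower and 15.5% (49 members) higher in PrE than in ES cells (limma on log2(plate mean TPM + 1), adjusted p below 0.05 over all genes tested), and the rest did not pass. Among all 16202 genes tested, 24.4% were lower and 34.7% higher. The filter took the mean over both cell types, and 27 members did not reach it. The median log2 difference was -0.22 for the members tested and 0.09 for all genes. Called and at least 2-fold apart were 71 lower and 26 higher members (22.4% and 8.2% of those tested), where 10.3% and 16.3% of all genes were. Without the wells of few transcripts, 49 members (15.4%) were called higher and 44.3% of those tested lower, against 36% and 29% of all genes. Of the members called, 18 of the 49 higher ones had an ES mean under 1 TPM and 34 of the lower ones a PrE mean under 1 TPM, so that they passed the filter through 1 cell type only and had to differ. Among 265 members with at least 1 TPM in both types, 95 were lower (35.8%) and 31 higher (11.7%), where 22% and 33.8% of all genes were. Adjusted p-values given below for members that passed through 1 type are those of the fit with no filter, in which all 18 and 32 of the 34 were called.

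The classes of the time course came out on the plates as follows. Of the 74 members that had fallen by 72 h, 63 were tested, of which 59 were lower in PrE and none was higher. Of the 22 that had risen, 19 were tested and all 19 were higher. Of the 248 in between, 235 were tested, 70 were lower and 30 higher. Without the wells of few transcripts, 60 of 62 that had fallen were lower, all 19 that had risen were higher, and of 237 in between 81 were lower and 30 higher. A member near 0 in 1 cell type could be tested only if it was high in the other. Members that rose from near 0, such as 9030622O22Rik, Gm26580 and 1010001N08Rik, therefore had to be higher in PrE once tested. The same limit holds for members that fell to near 0. Like counts for all genes were not taken.

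2310043M15Rik had the largest difference on the plates. Its plate means were 38, 26.7, 32.7 and 32.4 TPM in ES cells (plates B1, B2, E1 and E2) and 0.152, 0.127, 0.400 and 0.122 TPM in PrE cells. Each ES plate was far above each PrE plate, with a log2 difference of -4.80 ± 0.13 (SE; limma with no filter, adjusted p = 1.85e-07). Platr10 was at 46.4, 43.3, 48.8 and 44.8 TPM in ES cells and at 1.46, 1.38, 1.54 and 1.34 TPM in PrE cells. The groups lay apart with little spread on either side, and the log2 difference was -4.27 ± 0.07 (limma, adjusted p = 1.73e-09).

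Gm28625 was at 92.7 to 140 TPM in ES plates and at 7.89 to 13 TPM in PrE plates (log2 difference -3.39 ± 0.18, limma adjusted p = 5.72e-07). Gm5860 was at 49.1 to 68.1 and 3.63 to 6.47 TPM (-3.23 ± 0.18, limma adjusted p = 6.92e-07). Dancr had 59.4, 56.1, 62.1 and 44.7 TPM in ES cells against 5.47, 5.22, 4.99 and 6.83 TPM in PrE cells (-3.09 ± 0.13, limma adjusted p = 1.37e-07). For none of the 3 did an ES plate come near a PrE plate. Lncenc1 had 156.7, 143.8, 169.7 and 158.9 TPM in ES cells against 60.3, 44.2, 73.2 and 48.1 TPM in PrE cells, a smaller difference of -1.49 ± 0.15 (limma, adjusted p = 3.91e-05).

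Of the 15 Platr members 14 were tested, and 11 were lower and 2 higher in PrE, where 24.4% and 34.7% of all genes were. Their median log2 difference was -1.37. Platr3, Platr7, Platr11, Platr22 and Platr27 had a PrE mean under 1 TPM, so they passed the filter through ES cells alone and had to differ. Platr11 was at 2.76 to 3.94 TPM in ES plates and listed at 0 in the 4 PrE plates (limma with no filter, adjusted p = 4.52e-06). Platr7 (-2.54 ± 0.12), Platr28 (-2.28 ± 0.14) and Platr17 (-1.99 ± 0.20) were lower too, and Platr5 did not pass (-0.29, limma adjusted p = 0.322). Platr20 had 2.48, 2.44, 1.84 and 2.72 TPM in ES cells against 3.64, 3.16, 4.05 and 3.18 TPM in PrE cells, and Platr25 0.689 to 1.35 against 1.63 to 1.91 TPM. These 2 were the higher ones, by 0.42 ± 0.12 and 0.47 ± 0.13 on the log2 scale, and their calls did not hold when plate B1 was left out (limma, adjusted p = 0.0514 and 0.0615) nor, for Platr20, without E1 or with the median over cells (limma, adjusted p = 0.0534 and 0.223). Without the wells of few transcripts, 11 of the 14 were lower and 2 higher too (29% and 36% of all genes).

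Of the 11 characterised lincRNAs 10 were tested, and 7 were lower and 1 higher in PrE, where 24.4% and 34.7% of all genes were. Mir124a-1hg passed the filter through ES cells alone and had to differ. The 7 include Lncenc1, which had been added to the list by hand. The count without the wells of few transcripts was taken over the list without Lncenc1. In it 6 of 8 tested were lower and 1 higher, against 29% and 36% of all genes. Lncenc1 was lower without those wells too (-1.55 ± 0.11, limma adjusted p = 1.59e-06). Epb41l4aos went from 34.9 to 49.7 TPM in ES plates to 13 to 15.2 TPM in PrE plates (-1.52 ± 0.12, limma adjusted p = 5.79e-06). Bvht (-1.57 ± 0.16) and Mir124a-1hg (-1.72 ± 0.10) were lower as well. Pvt1, a lincRNA next to Myc, was at 20.3 ± 2.83 TPM in ES cells (SD, n = 4 plates) and 20.4 ± 1.42 TPM in PrE cells and did not pass (0.01 ± 0.11, limma adjusted p = 0.918). Lockd, named for its place downstream of Cdkn1b, had overlapping plates and a difference of -0.78 ± 0.22 that did not pass without plate B1 or E2 (limma, adjusted p = 0.055 and 0.0698). 1700020I14Rik was the higher one, at 8.05, 7.02, 9.02 and 7.5 TPM in ES cells and 16.6, 19.3, 19.2 and 15.8 TPM in PrE cells (1.07 ± 0.10, limma adjusted p = 2.37e-05).

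Members higher in PrE differed in their ES level. Of the 49, 18 had an ES mean under 1 TPM and 8 one of at least 5 TPM. RP23-341H2.4 (chromosome 7, 82155877 to 82157024) was at 1.75, 1.28, 0.444 and 1.75 TPM in ES cells against 31.6, 26, 20.1 and 23.3 TPM in PrE cells (3.53 ± 0.23, limma adjusted p = 1.74e-06). Gm26580 was at 0.0402, 0.0279, 0.0177 and 0 TPM against 6.82, 7.67, 7.13 and 6.55 TPM (2.98 ± 0.09, limma with no filter, adjusted p = 1.90e-07). 9030622O22Rik had 0.0461 TPM on ES plate B2 and 0 on the others, against 6.15, 6.78, 6.25 and 6.03 TPM in PrE cells (2.85 ± 0.08, limma with no filter, adjusted p = 1.98e-07). In each of these members the lowest PrE plate stood many times above the highest ES plate.

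Gm5535 was listed at 0 in the 4 ES plates and stood at 3.97, 3.73, 5.72 and 5.25 TPM in PrE plates (limma with no filter, adjusted p = 5.04e-06). 1010001N08Rik, with 0.0941 TPM on ES plate B2 and 0 on the other ES plates, was at 3.64, 4.09, 3.82 and 4.55 TPM in PrE cells (2.29 ± 0.10, limma with no filter, adjusted p = 1.24e-06). Gm13632 was at 18.3, 16.7, 20.8 and 18.6 TPM in ES cells and 70.4, 48.9, 63.2 and 71.4 TPM in PrE cells (1.71 ± 0.13, limma adjusted p = 5.80e-06). It was well above 0 in both cell types. Relative to its level, Gm42806 spread more over the PrE plates than Gm5535, 1010001N08Rik and Gm13632. It was at 2.00, 4.63, 6.66 and 1.75 TPM against 0 to 1.24 TPM in ES plates (1.70 ± 0.39, limma with no filter, adjusted p = 0.0149).

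**Figure D3:**
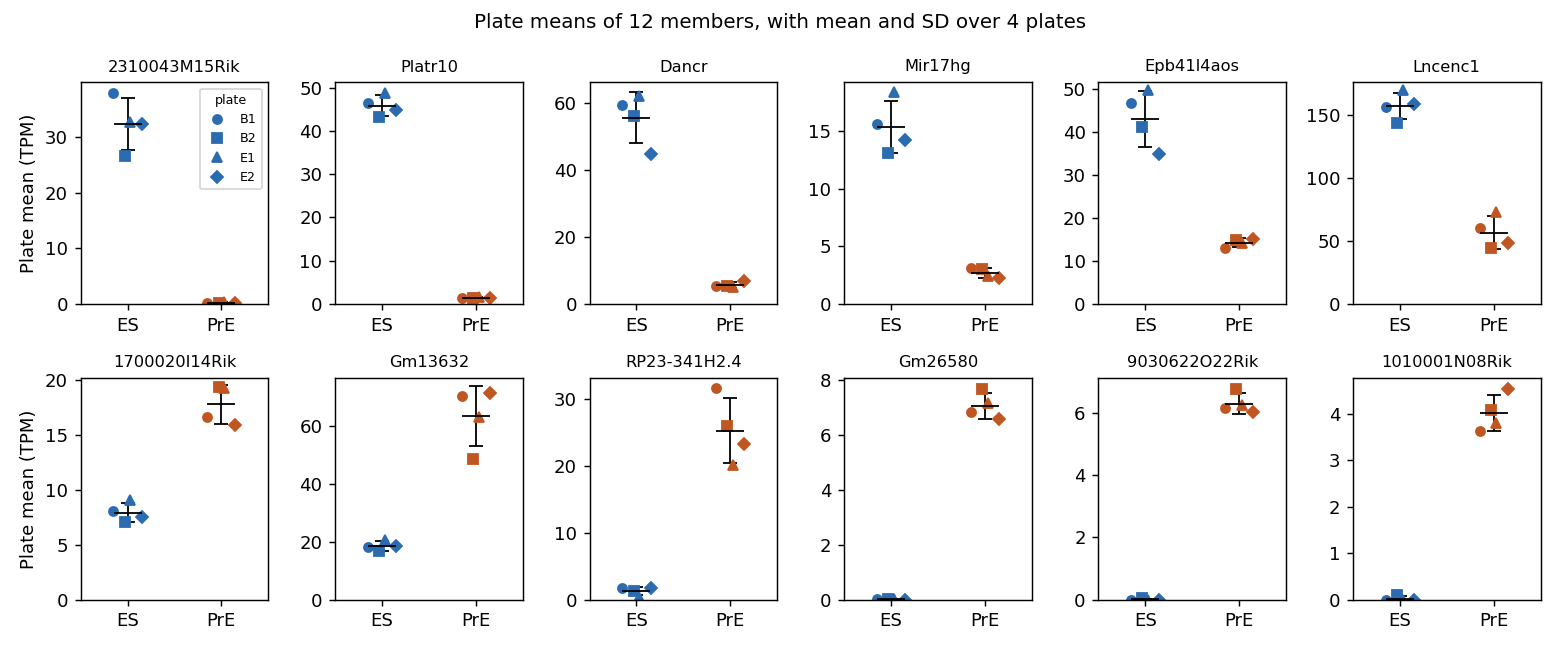
Plate means in TPM of 12 members in ES and PrE cells, with 1 symbol per plate (B1, B2, E1, E2) and the mean and SD over the 4 plates. For each member shown the ES and PrE plates do not overlap; Lncenc1 and Epb41l4aos remain above 10 TPM in PrE cells, whereas 2310043M15Rik stays at or below 0.400 TPM there.

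**Figure D4:**
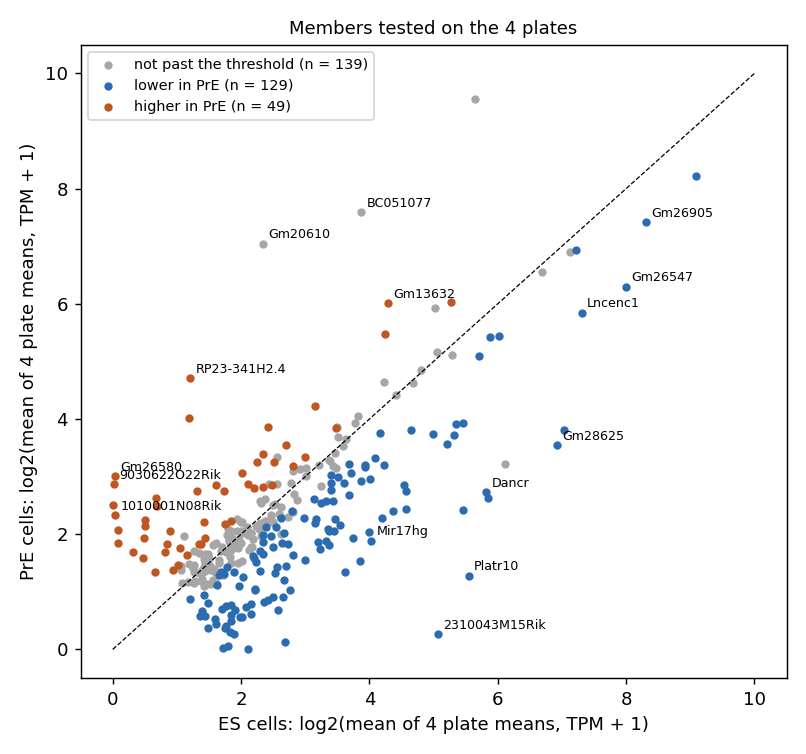
Level of each tested member in PrE against ES cells, as log2 of the mean of 4 plate means (TPM + 1), coloured by the limma call. The dashed line marks equal levels; members called lower lie below it, the 49 called higher lie above it, and BC051077 and Gm20610 lie far above it without a call because of wells of few transcripts.

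For some members wells of few transcripts set a plate mean. Gm14133 had a mean of 2861 TPM on PrE plate B2, which was 46.9 TPM without the wells of few transcripts, and BC051077 one of 740 TPM on PrE plate B1, which was 11 TPM without them. Gm20610 had 525 TPM on PrE plate B2 with those wells and 0.163 TPM without, and its log2 difference was then -2.19 (limma, adjusted p = 3.44e-07). BC051077 and Gm26869 were lower without them too, by -0.62 and -0.85 on the log2 scale (limma, adjusted p = 0.00185 and 2.80e-05). Miat had 5.28 TPM on PrE plate E2 with those wells; without them it was at 0 to 0.00237 TPM in PrE plates and 0.905 to 2.68 TPM in ES plates.

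On the C1 system, with 16 ES and 39 PrE cells and no test, 57 members were at least 2-fold lower and 29 at least 2-fold higher in PrE (11.7% and 17.6% of all genes). Of the 74 that had fallen in the time course 49 were 2-fold lower, and of the 22 that had risen 16 were 2-fold higher. None went the other way. Like counts for all genes of these classes were not taken here either. 2310043M15Rik was at 29.9 ± 35.3 TPM in ES cells and 1.76 ± 2.54 TPM in PrE cells (SD over cells), and Platr10 at 41.9 ± 18 and 3.85 ± 4.49 TPM. Platr11 (12.4 ± 14.2 TPM in ES cells) was listed at 0 in the 39 PrE cells. 9030622O22Rik was listed at 0 in the 16 ES cells and stood at 8.91 ± 11.9 TPM in PrE cells. Gm13632 was at 7.94 ± 6.57 and 35 ± 22.7 TPM, and 1010001N08Rik at 0.108 ± 0.432 and 4.8 ± 3.82 TPM. Here too the spread over cells was about as large as the mean for most members, so single cells of both types overlap for them.

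Each member was set beside its nearest protein-coding gene. Of the 280 pairs within 100 kb, 208 had both genes tested on the plates and 85 had both called, 61 in the same direction (20 higher, 41 lower) and 24 in opposite ones. Same directions thus made up 71.8% of these pairs, where the like pairing of all genes tested gave 69.5% of 3994 pairs. Without the wells of few transcripts, 79 pairs (75.2%) went the same way, against 67% of 4934 pairs of all genes. With pairs of overlapping exons left out, 73 tested pairs had both called, 51 in the same direction and 22 in opposite ones. Among 31 tested pairs with divergent starts within 2 kb, 8 were called in the same direction and 2 in opposite ones. Like shares over all genes were not taken for pairs without exon overlap or for divergent pairs. 9030622O22Rik and Foxa2 were both higher in PrE, Foxa2 by a log2 difference of 4.72. 1010001N08Rik was higher, while Gata6, next to it, did not pass with all wells (0.76, limma adjusted p = 0.146), with ES plates from 68.6 to 293 TPM. Without the wells of few transcripts the ES plates of Gata6 ranged from 68.6 to 81.3 TPM and the PrE plates from 212 to 236 TPM, and it was higher in PrE by 1.52 ± 0.07 (limma, adjusted p = 6.67e-08). Its level includes any reads from the transgene's coding sequence.

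Other pairs went apart. Dancr was lower and Usp46, a deubiquitinase gene 24646 bases away, was higher by 1.61. Platr7 was lower and Ckap4, 19302 bases away, was higher by 1.94. Platr11 was lower and Eomes, a T-box factor 72113 bases away, was higher by 1.06. Gm3143 lies 66257 bases from Sox2, a core pluripotency factor: Sox2 was lower by -5.67, and Gm3143 did not pass (0.21, limma adjusted p = 0.247). Platr28 and Rbmxl2 were both lower, and so were 2310043M15Rik and Morc3.

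Of the members with miRNA genes inside, 4 hold a hairpin of RefSeq: Mir17hg, 6720427I07Rik (let-7d), E130102H24Rik (miR-101a) and 2900076A07Rik (miR-1839). The tables measure the host RNA, not the mature miRNA. Mir17hg, on chromosome 14 at 115042879 to 115046727 (GRCm38), carries the miR-17-92 cluster, whose miRNAs are abundant in ES cells. Of its mature miRNAs 6 are shown, as RefSeq has them, because they fall into seed groups, and let-7d-5p of 6720427I07Rik (chromosome 13) stands last for comparison; capitals mark the seed, bases 2 to 8. miR-17-5p and miR-20a-5p share a seed, and miR-19a-3p and miR-19b-3p share another.
miR-17-5p: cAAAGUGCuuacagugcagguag
miR-20a-5p: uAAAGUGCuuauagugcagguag
miR-18a-5p: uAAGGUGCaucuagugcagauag
miR-19a-3p: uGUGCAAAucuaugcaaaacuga
miR-19b-3p: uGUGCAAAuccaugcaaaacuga
miR-92a-3p: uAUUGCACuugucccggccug
let-7d-5p: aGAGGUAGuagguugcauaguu

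Mir17hg was at 7.42 ± 5.61 TPM at 0 h and 3.28 ± 2.73 TPM at 72 h, just under a 2-fold fall (log2 difference -0.98). On the plates it had 15.6, 13.1, 18.4 and 14.3 TPM in ES cells and 3.14, 3.00, 2.41 and 2.29 TPM in PrE cells. The plates did not overlap, and the log2 difference was -2.14 ± 0.13 (limma, adjusted p = 1.09e-06). 6720427I07Rik, the host of let-7d, was lower by -0.47 (limma, adjusted p = 0.0221), a call that did not hold without plate B1 or E2 (limma, adjusted p = 0.0832 and 0.055).

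In bulk ES RNA, libraries with rRNA depleted were compared with poly(A)-selected ones. A higher level in rdRNA-seq does not by itself show that a member lacks a tail. Gm26905, for example, was higher there but had 83918 counts in the paRNA-seq libraries. Of 213 members tested, 92 (43.2%) were higher and 22 (10.3%) lower in rdRNA-seq (edgeR quasi-likelihood test, adjusted p below 0.05), where 23.8% and 26% of all genes were. Of these, 58 were higher and 5 lower by at least 2-fold (27.2% and 2.35% of those tested), where 8.02% and 4.52% of all genes were. The median log2 difference was 0.40 for the members and 0.01 for all genes. Without scaling beyond library size the median of all genes moved to -0.31, with 63 members higher and 47 lower.

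Among members higher in rdRNA-seq, Gm26870 stood furthest apart, with a log2 difference of 8.37 ± 0.12 (edgeR, adjusted p = 5.12e-13). It was at 2.81, 2.81 and 2.72 CPM (counts scaled to library sizes that TMM factors had adjusted) in paRNA-seq against 810, 1025 and 934 CPM in rdRNA-seq. The libraries of each kind lay close together and the kinds lay far apart. In SMART-Seq v4, which primes at the poly(A) tail, Gm26870 had 939, 1312, 901 and 1062 estimated counts, against 28, 28 and 27 in paRNA-seq. The RamDA-seq libraries from ES RNA had 346, 522 and 318. The low level in paRNA-seq was thus not seen in SMART-Seq v4, and the cause was not tested. Gm26547 had 95.5, 89.1 and 86.8 CPM against 461, 479 and 476 CPM (2.38 ± 0.04, edgeR adjusted p = 2.23e-12), and Gm26905 a mean of 2810 ± 91.9 against 6625 ± 116.7 CPM (1.24 ± 0.03, edgeR adjusted p = 3.01e-11). Gm26825 was higher by 0.63 ± 0.04 (edgeR, adjusted p = 1.20e-07). These 4 are among the 5 members with the highest mean in single cells, and the fifth, Lncenc1, is given below.

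Gm28872 had 0 counts in the 3 paRNA-seq libraries and 58 in the rdRNA-seq libraries, at least 28.9-fold higher when 3 counts over the group are taken as the floor. Gm26780 had 2 counts against 37 (27.7-fold, counting interval 7.14 to 237). Gm23925 had a mean of 0.134 ± 0.058 against 12.5 ± 3.20 CPM (6.39 ± 0.37, edgeR adjusted p = 8.96e-08). Gm23925 had 4 counts in the paRNA-seq and 248 in the rdRNA-seq libraries. Gm28872, Gm26780 and Gm23925 thus passed the filter through rdRNA-seq alone and had to differ, also in the test of Gm23925. RP23-341H2.4, given below, passed it through paRNA-seq alone. The fold of Gm26780 has the widest interval here, since it had 39 counts in all.

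RP23-341H2.4 went the other way, with 888, 926 and 877 counts in paRNA-seq and an estimate of 0 in each rdRNA-seq library. These are estimated counts, which the quantification divides between similar transcripts, so this 0 need not mean an absence of reads, and how reads were divided there was not tested. Single ES cells of the plates, made with RamDA-seq, had means of 0.444 to 1.75 TPM for it. Its estimated counts were also 0 in each SMART-Seq v4 library, primed at the poly(A) tail, and in each RamDA-seq library from ES RNA. Among these kinds of library from ES RNA, only paRNA-seq gave counts for it. Lncenc1, Platr10 and 2310043M15Rik, picked from the members with steep falls in the time course, differed little. Lncenc1 had 395, 390 and 390 CPM against 375, 360 and 364 CPM (-0.10 ± 0.03, edgeR adjusted p = 0.0184). Platr10 differed by -0.28 ± 0.05 and 2310043M15Rik by -0.36 ± 0.07. These 3 passed the test, but none passed when a log2 difference of over 0.5 was asked for. Platr28 was higher in rdRNA-seq by 1.26 ± 0.15, 6720427I07Rik by 1.61 ± 0.14 and Mir17hg by 0.39 ± 0.07, but without scaling beyond library size Mir17hg did not pass (0.07, edgeR adjusted p = 0.405). Dancr was higher by 0.28 (edgeR, adjusted p = 0.026), and without scaling its sign turned (-0.04). Dancr did not pass with DESeq2 (adjusted p = 0.292), with no filter (edgeR, adjusted p = 0.204) or without paRNA-seq library 3 or rdRNA-seq library 1 or 2 (edgeR, adjusted p = 0.103, 0.0858 and 0.0707), and neither it nor Mir17hg passed when a log2 difference of over 0.5 was asked for.

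**Figure D5:**
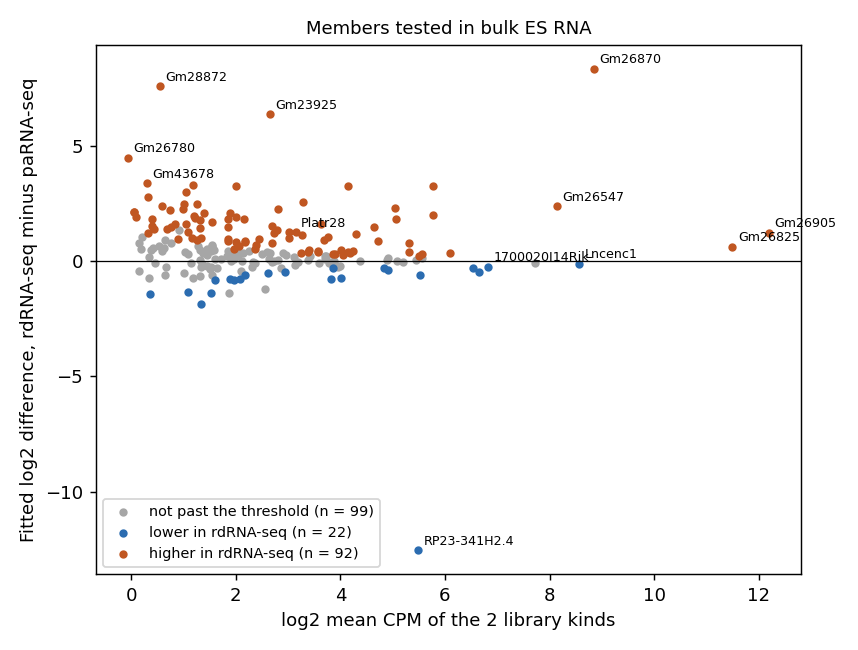
Fitted log2 difference between rdRNA-seq and paRNA-seq of bulk ES RNA against the log2 of the mean CPM of the 2 kinds of library, for the 213 members tested, coloured by the edgeR call. Orange points above 0 (92 members) are higher in rdRNA-seq and blue points below 0 (22 members) are lower; Gm26870 lies highest, and RP23-341H2.4, at 0 in rdRNA-seq, lowest.

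Libraries from 10 pg of the same RNA compared RamDA-seq with SMART-Seq v4. The methods differ in priming, along the RNA or at the tail, and also in how cDNA is amplified. These parts cannot be told apart here. Of 210 members tested, 21 (10.0%) were higher and 4 (1.90%) lower in RamDA-seq than in SMART-Seq v4 (edgeR, adjusted p below 0.05), where 7.43% and 6.62% of all genes were. The libraries did not overlap for 83 members (36% of all genes), and the median log2 difference was 1.01 for the members and 0.12 for all genes. Without scaling beyond library size the median of all genes was -0.54, with 17 members higher and 6 lower. Without RamDA-seq library 1, 2 or 3, the number higher was 4 each time, with 2, 3 and 2 lower.

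Gm26869 had 3 counts in the 4 SMART-Seq v4 libraries and 891 in the 3 RamDA-seq libraries, 962-fold higher (counting interval 328 to 4674). 6720427I07Rik, the let-7d host, had 0 counts in SMART-Seq v4 against 51, 64 and 32 in RamDA-seq, at least 158.7-fold higher on the same floor, and D230017M19Rik 0 against 79, at least 85.3-fold higher. C030034L19Rik had 1 count against 74, 43 and 78 (632-fold over the group, 112.04 to 25073). Hist2h2bb, a lincRNA model that overlaps the histone gene of that name, had 1 count against 31, 60 and 36 (411-fold, 72.5 to 16374). Each of these 5 was nearly or fully without counts in SMART-Seq v4, so it passed the filter on low counts through RamDA-seq alone and had to differ. The 21 members called higher include such members. Of the 5, only Gm26869 passed the test without any 1 RamDA-seq library; for the other 4 the adjusted p then lay between 0.0568 and 0.0789 (edgeR), and with no filter 3 of these 4, all but C030034L19Rik, did not pass either.

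Lncenc1 had 130.9, 61.6, 50.1 and 65.7 CPM in SMART-Seq v4 and 359, 354 and 363 CPM in RamDA-seq, higher by 2.22 ± 0.34 (edgeR, adjusted p = 0.00662), whereas it differed by -0.10 between the 2 kinds of bulk library. The RamDA-seq libraries lay close together and above each SMART-Seq v4 library. Lower in RamDA-seq were Gm26909 (73.1 ± 6.80 against 10.0 ± 2.19 CPM, -2.87 ± 0.45, edgeR adjusted p = 0.00778), BC051077 (91.1 ± 15 against 13.4 ± 4.97 CPM, -2.77 ± 0.44, edgeR adjusted p = 0.00822), 1810058I24Rik (-1.52 ± 0.34) and Gm26547 (-0.60 ± 0.12). The call of 1810058I24Rik was lost without any 1 RamDA-seq library (edgeR, adjusted p = 0.0814, 0.0871 and 0.088) and with no filter (0.0691), and that of Gm26547 without RamDA-seq library 1 or 3 (edgeR, adjusted p = 0.0763 and 0.0773). Gm26825 was higher by 0.30 ± 0.06 (edgeR, adjusted p = 0.0202), and without scaling its sign turned (-0.36). It did not pass without any 1 RamDA-seq library (edgeR, adjusted p = 0.0678, 0.0798 and 0.0861) or with no filter (0.163). Platr10 and 2310043M15Rik had overlapping libraries and did not pass (edgeR, adjusted p = 0.811 and 0.574).

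In ES cells sorted by phase, Lockd and Gm1976 were the 2 members with at least 2-fold between their highest and lowest mean level (2.1% of all genes had as much). This count rested on the measure, with 8 members at a pseudocount of 0.1 TPM and 18 with medians over cells in place of means. Lockd was at 7.31 ± 7.27 TPM in G1, 12.4 ± 11.5 in S and 23.6 ± 14.3 in G2/M, with medians over cells of 5.35, 8.78 and 22.5 TPM. Gm1976 was at 2.96 ± 2.82, 5.93 ± 4.28 and 7.25 ± 4.58 TPM. In both the order of the phases was the same, and the SDs over cells were about as large as the steps between phases or larger. The highest mean was in G1 for 65 members and in S or G2/M for the rest, and the median log2 difference between highest and lowest phase was 0.24 for the members and 0.27 for all genes.

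Genes that act on lincRNAs were set beside them, from lists of factors of nuclear RNA decay and of proteins known to bind lincRNAs. Of 22 decay genes tested on the plates, 7 were higher and 4 lower in PrE, with a median log2 difference of 0.07, where 34.7% and 24.4% of all genes were (31.8% and 18.2% of the list). The counts were the same without the wells of few transcripts. Mphosph6, a partner of the nuclear exosome, was higher by 1.13 ± 0.09 and Rbm7, of the NEXT complex, by 0.74 ± 0.14, whereas the exosome subunit Exosc5 was lower by -1.46 ± 0.11 (limma, adjusted p = 4.87e-06). Exosc9 had 454 TPM on PrE plate B2 with those wells and 37.7 TPM without. Of 17 partner proteins, 8 were lower (47.1%) and 1 higher (5.88%), with a median of -0.32, and without the wells 11 were lower and 1 higher, with a median of -0.42. Lower were members of the Polycomb complex PRC2, Jarid2 (-2.59 ± 0.11), Suz12 (-1.85 ± 0.11) and Eed (-1.76 ± 0.13), Spen, known for its role in X inactivation, (-1.07 ± 0.09) and Wdr5, a subunit of H3K4 methyltransferase complexes (-0.998 ± 0.088). Rbmx was the higher one (0.32 ± 0.11, limma adjusted p = 0.0372), but it did not pass without the wells of few transcripts (limma, adjusted p = 0.0929). The higher one was then Ptbp1 (0.29 ± 0.07, limma adjusted p = 0.00452), whose plate B2 means had been 1781 TPM in ES and 2171 TPM in PrE cells. Hnrnpa2b1 (-0.42 ± 0.07) and Pum2 (-0.33 ± 0.07) were lower without those wells and had not passed with them. Hnrnpk, at 1137 TPM on ES plate B1 with those wells and 453 TPM without, and Hnrnpu did not pass either way.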

How the data were processed

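RamDA-seq, SMART-Seq v4 and bulk libraries were quantified by the authors with Sailfish (library type U) on GENCODE vM9 transcripts. The deposited values are TPM per transcript for single cells, which carry no depth, and estimated counts for libraries from RNA. The other deposited file used is the authors' gene annotation of merged models (mm10), from which gene types and positions (other) were taken, and a TPM table on those models served as an alternative. Columns of other methods in the count table, 8 in all, were not used. Summed estimated counts were 8946524 to 8962714 in paRNA-seq, 7394929 to 7502173 in rdRNA-seq, 8740984 to 8780830 in SMART-Seq v4 and 5706202 to 5733432 in RamDA-seq.

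Values were summed per gene here. Means and SDs were taken over cells for times, phases and C1 cells, with no test. Plate means were compared with limma 3.58.1 on log2(TPM + 1) for genes with a mean of at least 1 TPM, and rounded counts with the edgeR 4.0.16 quasi-likelihood test (TMM, filterByExpr), in R 4.3.3, both with Benjamini-Hochberg adjustment at 0.05 over all genes tested. Fold values on the log2(TPM + 1) scale understate changes of low genes. DESeq2 1.42.0 was an alternative. Scripts were tested on simulated data. Tables were read with Python 3.11.15 and pandas 2.3.3. Intervals are 95% and cover counting error only. RefSeq sequences (GRCm38.p6) matched the build of the files, mm10. Promoters were found for 91 members by symbol or Ensembl identifier. The RefSeq start had to lie on the same strand, within 1000 bases of the gene's start.

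The members and the gene lists were chosen with earlier results of these data known. Named members are the 10 with the highest mean, the 10 with the largest rise and fall among those of at least 5 TPM, up to 5 with a peak or dip at 12 or 24 h, up to 5 per direction in each test, the 5 with the largest fold between phases, the Platr and characterised ones and those next to markers, 76 in all. Members named beside these were picked after their values were seen: those led by the 48 h cell, those moved by wells of few transcripts, hosts of miRNAs, and pairs of neighbours. Plates are shared batches by their labels, but deviations of ES and PrE means correlated at only 0.0657, 0.032, 0.0829 and 0.0577 within B1, B2, E1 and E2. Wells of few transcripts had a number over 1.5 interquartile ranges under the first quartile of their group.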

Additional observations from a re-analysis of the deposited data

Results flagged for a closer look

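Among groups of 4 plates or libraries, for the 76 named members, 22 (11.6%) held 1 value far from the rest. Chance gives about 1 in 20 for normally distributed values, which these need not be. In some of the 22 the other values were all 0, as for Platr26 and Platr27. Such a group is flagged whatever the size of its 1 value, so 11.6% cannot be set against 1 in 20. On the plates, the high values in PrE were those of BC051077 (740 TPM, B1), Gm20610 (525 TPM, B2), Gm43678 (117.8 TPM, B1), Miat (5.28 TPM, E2), Gm11635 (1.20 TPM, B1) and 2310043M15Rik (0.400 TPM, E1), and 2810429I04Rik was low (3.61 TPM, B2). In ES cells the high values were Gm26869 (57.1 TPM, B1), Platr7 (6.90 TPM, E2), 1010001N08Rik (0.0941 TPM, B2) and 9030622O22Rik (0.0461 TPM, B2). Without wells of few transcripts the values of BC051077, Gm20610, Gm26869 and Miat were 11, 0.163, 10.3 and 0 TPM.

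In SMART-Seq v4, library 4 was low for Gm26547 (451 CPM) and high for Gm26780 (5.10 CPM), Mir17hg (3.88 CPM), Gm26880 (1.89 CPM) and Hist2h2bb (0.0945 CPM). Library 3 was high for Gm1976 (14.6 CPM), Mir124a-1hg (9.42 CPM), Platr26 (8.48 CPM) and Platr27 (5.56 CPM), and library 1 for Gm20707 (20.5 CPM) and C030034L19Rik (0.0945 CPM).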

How the results depend on the processing

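On the plates, 32 members were higher with the median over cells in place of the mean, against 49. Leaving out 1 plate gave 41 to 49 higher members, and the number lower stayed within 1.5 times. With the plate as a replicate block, 48 were higher and 42% of those tested lower, and no call of a named member was lost. The pairs of neighbours called in the same direction numbered 49 to 55 and in opposite ones 19 to 21 without 1 plate. In the bulk libraries, 58 members were higher and 2 lower with glmTreat, 10 lower with DESeq2 and 47 lower without scaling. Leaving out 1 library gave 83 to 92 higher and 17 to 19 lower. In the 10 pg libraries, 73 were higher and 8 lower with DESeq2 and 5 higher without a filter. A replicate block gave 2 higher and 0 lower members at 10 pg, with 11 calls of named members lost, and 90 higher and 20 lower in bulk, with 1 lost (Gm26751). There the numbers only name the libraries (correlations -0.00944 to 0.0127 at 10 pg and -0.0252 to 0.0238 in bulk). Leaving out 1 library gave 4 to 25 higher and 2 to 4 lower, each low count coming from the loss of a RamDA-seq library.

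With a pseudocount of 0.1, 8 members differed 2-fold between phases and 55 were 2-fold higher in C1 PrE, and with medians over cells 18 differed between phases. Shares of cells with a TPM of at least 1 had medians of 82.6%, 72.5%, 82.3%, 73.6% and 76.3%. Signs turned for Dancr in bulk (-0.035) and Gm26825 at 10 pg (-0.36) without scaling, and on merged models for Gm28625 (0.47), Gm5860 (0.015) and Platr15 (0.30) between 0 and 72 h. Without the 48 h cell, 330 members met the rule, 4 rose from 24 to 48 h and 2 fell from 48 to 72 h. That alternative and the one without wells of few transcripts were chosen after the data were seen. The causes were not tested. Of 2143 values for single members, 1966 kept their direction and side of the threshold, 5.46% lost their call, 34 came to pass, 21 moved and 5 turned sign. TPM give no depth, and the number of cells, plates and libraries limits precision.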
